A study of Bos taurus with 4 samples.

Results

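The genes that drive and police cell division were examined in polyadenylated RNA of bovine (Bos taurus) embryos at the 8- to 16-cell stage, collected 3 days after insemination. Members were chosen by gene symbol alone: cyclins, cyclin-dependent kinases (CDKs) and their inhibitors, genes with CDC numbers, Aurora and polo-like kinases, spindle checkpoint genes, centromere proteins, subunits of the anaphase-promoting complex, and a few single regulators such as PTTG1, E2F1 and RB1. The rule found 129 rows, each a RefSeq transcript, of 127 genes among the 14517 rows of the deposited table, 14295 of which had a symbol. A role in the cell cycle or a close relation to it placed 103 of these rows in 11 groups. The other 26 matched the symbol rule and were left outside these groups, such as the partners of the small GTPase CDC42. Being left outside does not mean that a gene has no link to the cell cycle. INCENP, WEE2 and CENPE were not analysed here.

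The study compared 2 groups of embryos, each with 2 libraries. Zygotes of the control group (NC) received negative control small interfering RNAs (siRNAs), and those of the knockdown group (KDM5_KD) received siRNAs against KDM5A, KDM5B and KDM5C, which encode demethylases of histone H3 lysine 4. The second knockdown library carries a conflicting treatment label that names KDM6A, KDM6B and KDM6C, and it was kept in the group its title gives. The labels do not say whether the libraries came from separate pools of embryos, so p-values measure the spread between these libraries, which may be technical.

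The labels were first checked against the data. KDM5A was at 28.4 and 27.1 FPKM (fragments scaled to transcript length and to sequencing depth) in NC replicates 1 and 2, and at 10.5 and 10.1 FPKM in KDM5_KD replicates 1 and 2, and it passed the test over all transcripts (log2 fold change -1.35 with an SE of 0.14, adjusted p = 0.0333 by limma). In limma its adjusted p was 0.167 with no filter, 0.0605 without the trend, 0.0591 under the replicate block, 0.0625 without NC replicate 2, 0.179 without KDM5_KD replicate 1 and 0.232 without KDM5_KD replicate 2, while the fold change stayed between -1.32 and -1.38 when a library was left out. KDM5C was at 28.1 and 40.6 FPKM in the controls and 15.1 and 17.8 FPKM with knockdown (log2 fold change -1.0 with an SE of 0.21, adjusted p = 0.123 by limma, and -1.26 with adjusted p = 0.0265 without NC replicate 1). KDM6A overlapped between the groups, and KDM5B was not analysed here. Of 15 listed symbols of oocyte and early embryo genes 13 had a row, and their summed level was 661 and 530 FPKM in the controls and 773 and 883 FPKM with knockdown. H1FOO, without a row, is an older symbol of H1-8, which had one. Of the 14 rows tested, 7 lay above both controls in both knockdown libraries, among them the oocyte growth factor BMP15 (log2 fold change 0.68), and 0 lay below, while the pluripotency factor POU5F1 overlapped at 56.2 to 63.2 FPKM. In limma 0 of the 14 passed the adjusted threshold, and 4 had an unadjusted p under 0.05. Of all tested transcripts 35.1% lay above both controls and 15.6% below, and 14.3% were higher at an unadjusted limma p under 0.05. With transcripts split by mean FPKM into 4 classes of equal size, 48.0% lay above in the lowest class and 21.0% in the highest. The summed level of 21 genes listed as markers of cumulus and granulosa cells, the somatic cells around the oocyte, was 85.0 and 64.2 FPKM in the controls and 161 and 135 FPKM with knockdown. The list includes the matrix genes LUM, DCN, COL1A1, COL1A2 and COL3A1, which are not particular to these cells. COL1A1 was at 28.4 and 23.9 FPKM in the controls and 47.7 and 35.8 FPKM with knockdown. LUM was at 4.02 and 5.12 FPKM against 23.8 and 15.6 FPKM. Of the 15 markers tested, 12 (80.0%) lay higher in both knockdown libraries than in both controls and 0 lower. That share is above the 35.1% of all transcripts and the 48.0% of the lowest class. In limma 0 of these markers passed the adjusted threshold, and 10 (66.7%) had an unadjusted p under 0.05. The 12 and the 10 both include GREM1, VCAN and COL1A2, whose NC means were 0.572, 0.668 and 0.527 FPKM. These genes reached the mean of 1 FPKM required for testing through the knockdown libraries, so they could not have counted as lower. Among genes of this list, the steroid enzyme gene CYP11A1 was at 8.41 and 3.79 FPKM in the controls and 12.5 and 17.2 FPKM with knockdown. HSD3B1, STAR and INHBA also lay above both controls, as did FOXL2, which was not tested at a mean of 0.870 FPKM. AMH overlapped with a negative log2 fold change (-0.42), at 2.77 and 1.12 FPKM in the controls and 1.28 and 0.957 FPKM with knockdown. TNFAIP6 overlapped too (-0.05). The receptor gene FSHR was listed at 0 in both NC libraries and at 0.0216 and 0.0443 FPKM in KDM5_KD, LHCGR was at 0 in 3 of the 4 libraries, and CYP19A1 stayed between 0.0110 and 0.0602 FPKM. The part of either marker list in the results below was not tested.

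Cell division is run by CDKs, which act only when bound to a cyclin. D-type cyclins with CDK4 or CDK6, and E-type cyclins with CDK2, release E2F transcription factors from the retinoblastoma protein RB1 and start DNA replication, whereas A- and B-type cyclins with CDK1 start mitosis. At mitosis the Aurora and polo-like kinases build the spindle, the checkpoint proteins wait until every kinetochore is attached, and the anaphase-promoting complex then destroys cyclin B and the anaphase inhibitor securin (PTTG1). Cleavage divisions of an early embryo run largely on RNA and protein stored in the oocyte until the embryonic genome is activated, which in cattle happens at about the stage sampled here.

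The 129 rows were mostly well expressed. Their mean over the libraries was at least 10 FPKM for 93 rows and at least 100 FPKM for 10, and it was under 5 FPKM for 21. The most abundant was CKS2, the gene of a small adaptor protein that binds CDKs, at 1426 and 1284 FPKM in the control libraries against 1415 and 1335 FPKM in the knockdown libraries. Levels ranged widely among genes of the same phase. CCNB1 and CCNA2 were at 301 to 416 FPKM in every library, while the mitotic kinase gene TTK did not exceed 9.91 FPKM. Of the genes of G1 and S phase, E2F1 was at 67.8 to 95.2 FPKM, while the 3 D-type cyclins did not exceed 6.33 FPKM and RB1 did not exceed 2.46 FPKM. FPKM are scaled to transcript length, so such levels can be set side by side between genes.

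**Figure D1:**
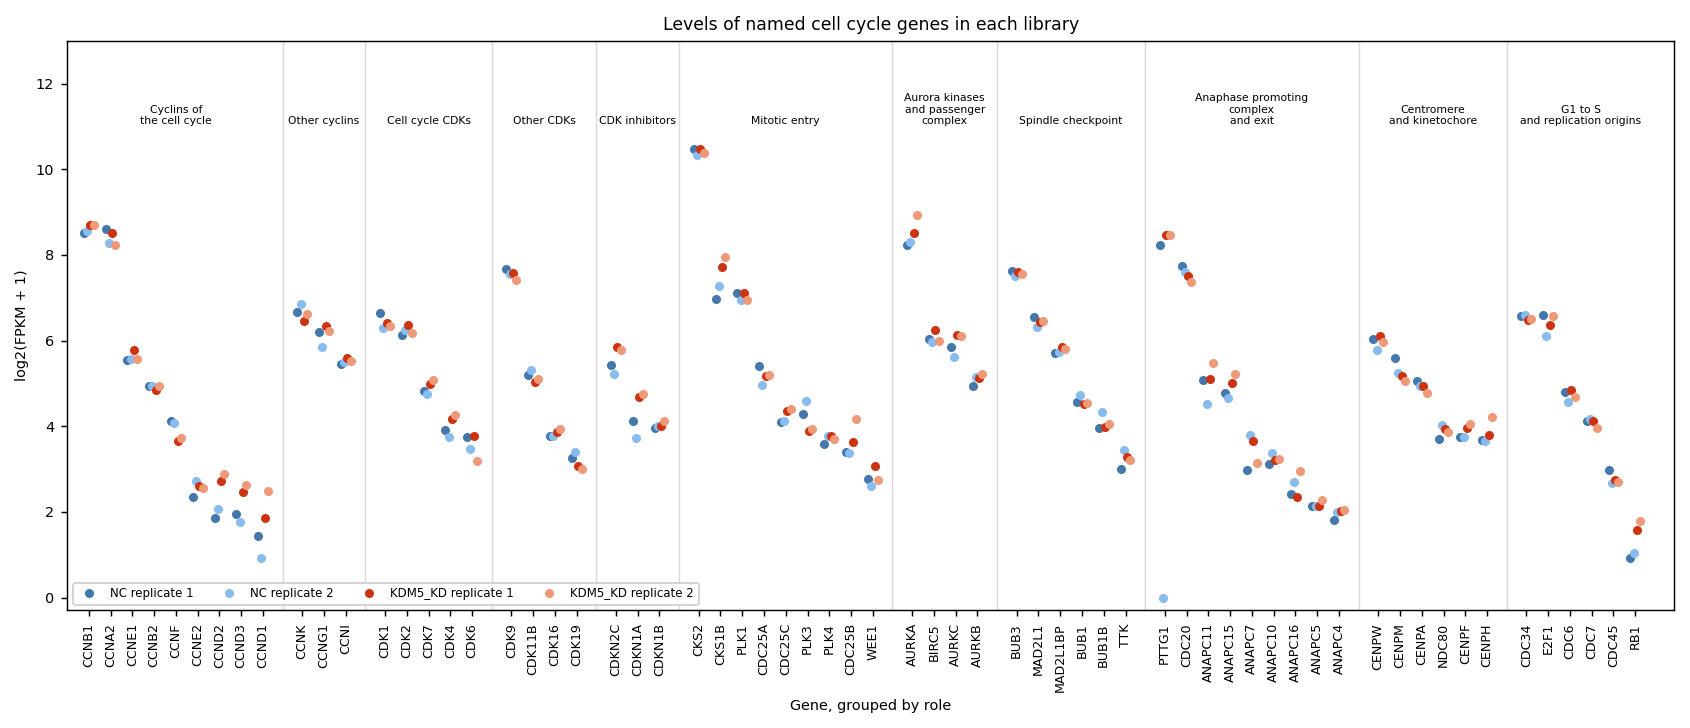
Level of the named genes with a role in the cell cycle, ANAPC13 left out, as log2(FPKM + 1) in the 4 libraries (dark and light blue: NC replicates 1 and 2; dark and light red: KDM5_KD replicates 1 and 2), grouped by role. CKS2, CCNB1 and AURKA lie high and the D-type cyclins and RB1 low in all libraries, and PTTG1 in NC replicate 2 is a single point at the bottom of the axis.

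Differences between the groups were tested with limma on log2(FPKM + 1) in one fit over all 8970 transcripts with a mean of at least 1 FPKM, and a transcript is called when its Benjamini-Hochberg adjusted p is under 0.05. Of the 129 rows 127 were tested, and 0 were called in either direction, where 0.279% of all transcripts were called, 0.19% higher and 0.0892% lower in KDM5_KD. The smallest adjusted p among them was 0.127 by limma. Without NC replicate 1 limma called 4 members higher (CDKN1A, PTTG1, CDC42EP1 and 1 row of ANAPC13), and over all transcripts 323 higher in place of 17. With NC replicate 2, KDM5_KD replicate 1 or KDM5_KD replicate 2 left out instead, 0 members were called, and over all transcripts 30, 5 and 3 were called higher. Without adjustment 15 members were higher and 2 lower in KDM5_KD at a limma p under 0.05, that is 11.8% and 1.57% of them, beside 14.3% and 3.12% of all tested transcripts. In bulk RNA of whole embryos a change in the number of cells of a kind and a change in RNA per cell cannot be told apart.

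The groups overlapped for 75 of the 127 members. For 36 members, or 28.3%, both knockdown libraries lay above both controls, and for 16, or 12.6%, both lay below. Over all tested transcripts these shares were 35.1% and 15.6%, so both shares were smaller among the members. The share above depended on expression level, and among the most abundant transcripts it was larger for the members, as given below. The median log2 fold change of the members was 0.06, beside 0.09 for all transcripts. Their values reached from -0.53 (PLK3) to 4.35 (PTTG1), with quartiles of -0.06 and 0.20. A log2 fold change of at least 1 was found in 2 members, PTTG1 and CDC42EP1, where 4.52% of all transcripts had one, and in 0 members it was -1 or lower, where 0.301% of all were. NC replicate 1 was the control nearer to the knockdown libraries in 31 of the 52 members that did not overlap, beside 2746 of 4550 transcripts overall.

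The excess of higher over lower members depended on how libraries were scaled. With median-ratio scaling 27 members lay above and 27 below, with quantile normalization 29 and 32, and with all libraries brought to the same FPKM sum 21 and 28. That sum included non-coding rows, and was 287950 and 283347 in NC and 322267 and 297389 in KDM5_KD. Over protein-coding rows it was 286544 and 278405 in NC and 289235 and 284250 in KDM5_KD. A scaling on protein-coding rows alone was not run. The same scalings shifted the median of all transcripts by -0.10, -0.14 and -0.10 on the log2 scale, and the median of the members was then -0.04, -0.05 and -0.04. A difference of about 0.1 in a single gene is thus of the size of the shift between scalings.

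**Figure D2:**
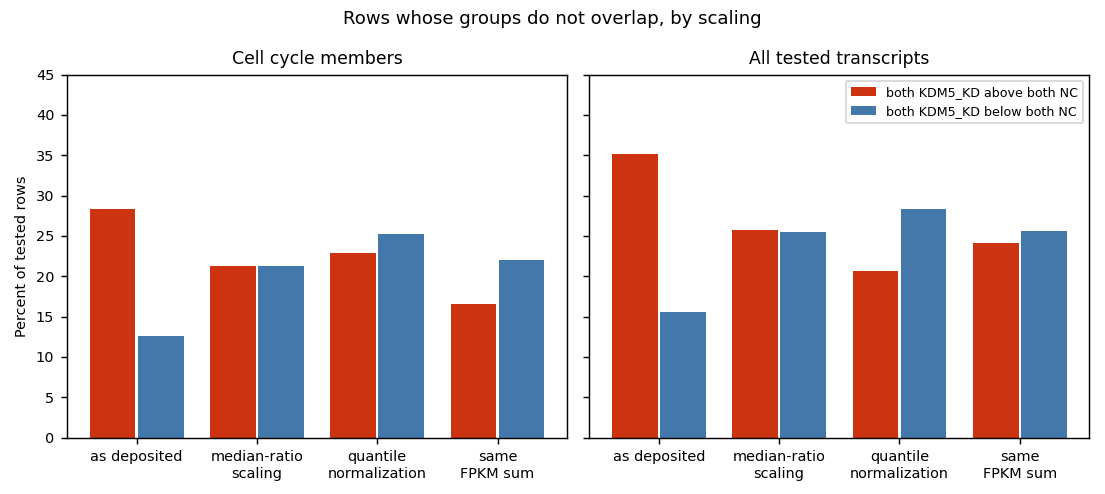
Percent of tested rows for which both KDM5_KD libraries lie above (red) or below (blue) both NC libraries, for the 127 tested members (left) and all 8970 tested transcripts (right; 8949 to 8970 depending on the scaling), with FPKM as deposited and after 3 other scalings. As deposited, 28.3% of members lie above and 12.6% below, and with median-ratio scaling both shares are 21.3%.

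The medians also differed by expression level. By mean FPKM the tested transcripts were split into 4 classes of equal size, of which the highest held 47 members and the lowest 11. In the lowest class the median log2 fold change was 0.13 for members and 0.25 for all transcripts, and in the next it was 0.05 and 0.16. In the third class both medians were 0.06, and in the highest they were 0.05 for members and -0.02 for all.

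**Figure D3:**
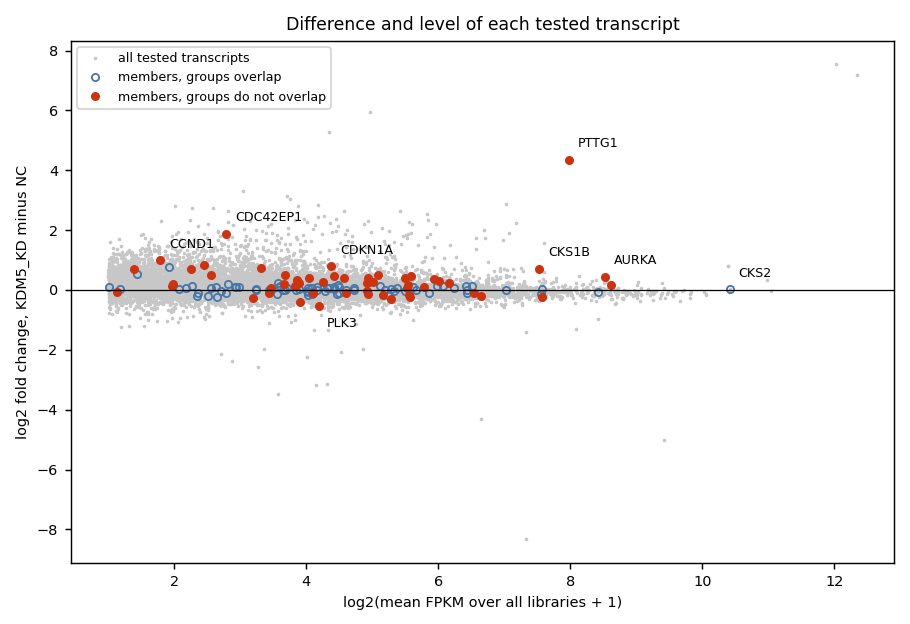
Log2 fold change (KDM5_KD minus NC, vertical) against level (log2 of the mean FPKM + 1, horizontal) for all tested transcripts (grey), members whose groups overlap (open blue circles) and members whose groups do not overlap (filled red circles). Apart from PTTG1 at 4.35 and CDC42EP1 at 1.88, all members lie between -0.53 and 0.99.

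Among the 9 cyclins of the cell cycle, the D-type cyclins stood out by the size of their differences. CCND1 was at 1.70 and 0.891 FPKM in the controls and 2.61 and 4.60 FPKM with knockdown. CCND2 was at 2.62 and 3.23 FPKM in the control libraries against 5.59 and 6.33 FPKM in the knockdown libraries. CCND3 was at 2.88 and 2.41 FPKM in the controls and 4.55 and 5.23 FPKM with knockdown. In all 3 genes both knockdown libraries were above both controls. Of all tested transcripts 35.1% lay so, and 48.0% and 40.6% of those in the lowest expression class and the next. The summed level of the 3 D-type cyclins was 2.11 times as high, at 6.87 ± 0.480 FPKM (SD, n = 2) in the controls and 14.5 ± 2.41 FPKM (SD, n = 2) with knockdown. Their log2 fold changes were 0.99 (SE 0.30), 0.83 (SE 0.20) and 0.69 (SE 0.20), and the adjusted p by limma was 0.196, 0.144 and 0.182, so none was called. The direction was the same under every scaling run. Quantile normalization, which lowered these differences most, gave 0.67, 0.57 and 0.42. The summed cumulus and granulosa markers and the summed oocyte and embryo markers given above were higher in the same libraries.

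The abundant cyclins of S phase and mitosis differed little. CCNB1, the main mitotic cyclin, was at 363 and 375 FPKM in the controls and at 416 FPKM in both knockdown libraries. Its log2 fold change was 0.17 (with an SE of 0.11, adjusted p = 0.462 by limma), and it was 0.06 with median-ratio scaling and with the same FPKM sum. CCNB2 was at 28.0 to 29.9 FPKM and CCNA2 at 301 to 391 FPKM across the 4 libraries, and CCNA2 overlapped between the groups. Cyclin E was represented by CCNE1 at 45.6 to 54.1 FPKM and by CCNE2 at 4.07 to 5.57 FPKM, both overlapping. CCNF, whose product is a substrate receptor of a ubiquitin ligase, was lower in both knockdown libraries, at 11.6 and 12.2 FPKM against 16.3 and 16.0 FPKM (log2 fold change -0.41 with an SE of 0.15, adjusted p = 0.245 by limma).

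The 11 other cyclins, most of which act in transcription, lay between -0.21 and 0.24 in log2 fold change. CCNK, the partner of CDK12 and CDK13, was at 100.2 and 114 FPKM in the control libraries against 87.2 and 97.5 FPKM in the knockdown libraries, a difference of -0.21 that was -0.12 without NC replicate 2 and -0.13 without KDM5_KD replicate 1. CCNG1, a target of p53, was at 73.1 and 57.0 FPKM in the controls and 79.7 and 73.8 FPKM with knockdown, and its difference of 0.24 was 0.07 without NC replicate 2 and 0.42 without NC replicate 1. CCNI was at 43.0 and 44.5 FPKM in the control libraries against 47.3 and 44.8 FPKM in the knockdown libraries, a difference of 0.07 that turned negative under median-ratio scaling (-0.04) and with the same FPKM sum (-0.04). The summed level of this group was 425.1 and 425.9 FPKM in the controls and 423 and 425.4 FPKM with knockdown.

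Of the 6 CDKs of the cell cycle, CDK4 and CDK7 did not overlap between groups, where 50.7% of all tested transcripts did not. CDK4, the partner of D-type cyclins, was at 14 and 12.5 FPKM in the control libraries against 17.0 and 18.2 FPKM in the knockdown libraries (log2 fold change 0.38 with an SE of 0.15, adjusted p = 0.278 by limma). CDK7, the kinase that activates other CDKs, was at 27.5 and 26.1 FPKM in the controls and 30.6 and 33.0 FPKM with knockdown (0.24 with an SE of 0.13, adjusted p = 0.400 by limma). CDK6, the other partner of D-type cyclins, overlapped between the groups: its values were 12.4 and 10.2 FPKM in the control libraries against 12.7 and 8.08 FPKM in the knockdown libraries. CDK1, the mitotic kinase, was at 77.6 to 99.2 FPKM and CDK2, the S-phase kinase, at 69.0 to 81.1 FPKM, and both overlapped.

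The other CDKs act largely in transcription and differentiated cells, and 8 of the 11 rows tested overlapped, beside 49.3% of all tested transcripts. CDK9, which releases paused RNA polymerase, was the most abundant, at 201 and 188 FPKM in the controls and 189 and 169 FPKM with knockdown. CDK19, a kinase of the Mediator complex, was at 8.58 and 9.49 FPKM in the control libraries against 7.44 and 7.05 FPKM in the knockdown libraries (log2 fold change -0.28 with an SE of 0.17). CDK11B was also lower in both knockdown libraries, by 0.18 on the log2 scale, and CDK16 was higher by 0.12, which became -0.03 after quantile normalization. CDK14 was under the filter, at 0.302 and 0.248 FPKM in the controls and 0.750 and 0.931 FPKM with knockdown.

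The CDK inhibitors included the second smallest adjusted p among the members. CDKN1A, which encodes the inhibitor p21, was at 16.4 and 12.3 FPKM in the control libraries against 24.5 and 26.1 FPKM in the knockdown libraries, a ratio of means of 1.76. Its log2 fold change was 0.79 (with an SE of 0.18, adjusted p = 0.133 by limma). Leaving out NC replicate 1 made it pass at 0.98 (limma adjusted p = 0.0433), and over the comparisons that each left out a library the adjusted p lay between 0.0433 and 0.506. CDKN2C, an inhibitor of CDK4 and CDK6, was at 42.0 and 36.6 FPKM in the controls and 56.4 and 53.6 FPKM with knockdown (0.48 with an SE of 0.13, adjusted p = 0.168 by limma). In both genes the knockdown libraries lay close together and NC replicate 1 was the control nearer to them. Both marker sums were higher in these libraries too.

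The other inhibitors overlapped between the groups or lay below the filter. CDKN1B, which encodes p27, was at 14.7 to 16.4 FPKM in all libraries, and CDKN2B and CDKN2D overlapped. CDKN3, a CDK-associated phosphatase, was under the filter and was at 0.117 and 0.158 FPKM in the control libraries against 1.39 and 0.806 FPKM in the knockdown libraries. The summed level of the 6 genes was 96.7 ± 7.77 FPKM (SD, n = 2) in the controls and 123 ± 4.8 FPKM (SD, n = 2) with knockdown, to which CDKN2C and CDKN1A gave most of the difference.

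**Figure D4:**
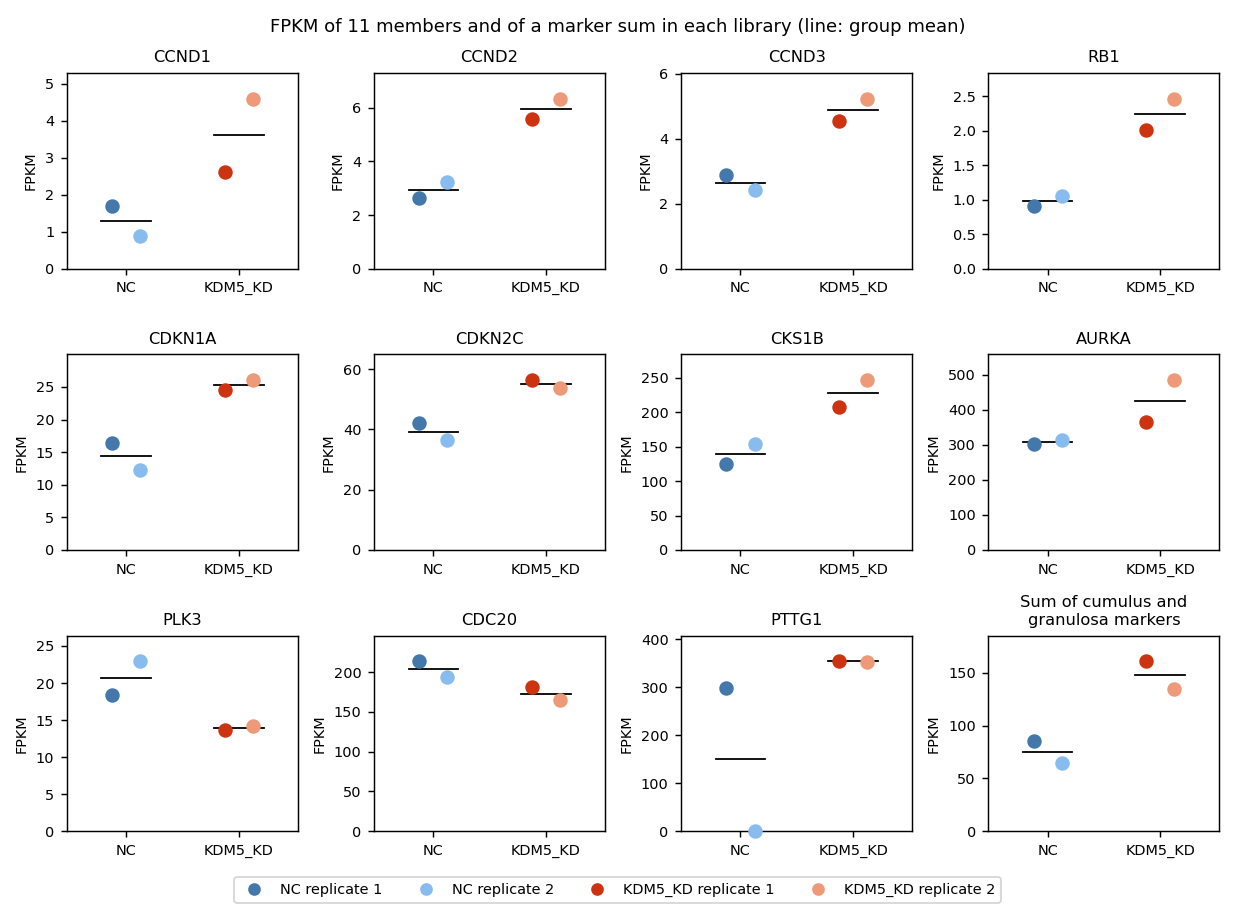
FPKM of 11 members in each library, with a line at the mean of each group, and in the last panel the sum of the 21 genes listed as cumulus and granulosa markers, matrix genes included (dark and light blue: NC replicates 1 and 2; dark and light red: KDM5_KD replicates 1 and 2). The D-type cyclins, RB1, CDKN1A, CDKN2C, CKS1B and AURKA are higher in both knockdown libraries, PLK3 and CDC20 are lower, and PTTG1 is near 0 in NC replicate 2 alone.

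The regulators of entry into mitosis held the smallest adjusted p of all members. CKS1B was at 125 and 154 FPKM in the controls and 208 and 247 FPKM with knockdown, 1.63 times as high by the means (log2 fold change 0.70 with an SE of 0.15, adjusted p = 0.127 by limma). Its product, like that of CKS2, docks on CDKs, and it also helps the ubiquitin ligase with SKP2 to recognise p27. CKS2 itself overlapped between the groups. The ratio of CKS2 to CKS1B was 11.4 and 8.33 in NC and 6.79 and 5.41 in KDM5_KD, so the ratio did not overlap between the groups either. CKS1B kept its direction in all alternatives run, between 0.55 and 0.85, without reaching the threshold in any.

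Of the opposing enzymes that switch CDK1, a pair of phosphatases did not overlap between the groups, where 50.7% of all tested transcripts did not. CDC25B, a phosphatase that activates CDK1, was at 9.49 and 9.30 FPKM in the control libraries against 11.4 and 16.9 FPKM in the knockdown libraries (log2 fold change 0.52 with an SE of 0.22, adjusted p = 0.298 by limma), and without KDM5_KD replicate 2 the difference was 0.25, and without KDM5_KD replicate 1 it was 0.78. CDC25C was at 16.2 and 16.4 FPKM in the controls and 19.6 and 20 FPKM with knockdown (0.27, SE 0.14). CDC25A, the most abundant of the 3 at 30.1 to 41.2 FPKM, overlapped. WEE1, the kinase that restrains CDK1, was at 5.13 to 7.39 FPKM and overlapped too.

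Among the polo-like kinases 1 of 4 did not overlap between the groups, beside 50.7% of all tested transcripts. PLK3, a stress-responsive kinase, had the most negative log2 fold change among all tested members, at 18.4 and 22.9 FPKM in the control libraries against 13.7 and 14.2 FPKM in the knockdown libraries (log2 fold change -0.53 with an SE of 0.17, adjusted p = 0.202 by limma). PLK1, which acts throughout mitosis, was at 122 to 137 FPKM and overlapped. PLK4, the kinase of centriole duplication, was at 10.9 to 12.7 FPKM, and PLK2 overlapped as well.

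All 4 genes of the Aurora kinases and their passenger complex had positive log2 fold changes, from 0.12 to 0.45, where 62.6% of all tested transcripts had positive ones. AURKA, the spindle pole kinase, was at 301 and 314 FPKM in the controls and 364 and 485 FPKM with knockdown (0.45 with an SE of 0.16, adjusted p = 0.243 by limma). The value in KDM5_KD replicate 2 made up much of this, and without it the difference was 0.24. AURKC, the Aurora kinase of germ cells and early embryos, was at 57.0 and 48.1 FPKM in the control libraries against 68.7 and 67.7 FPKM in the knockdown libraries (0.38 with an SE of 0.13, adjusted p = 0.237 by limma). AURKB and BIRC5, which encodes survivin, overlapped, at 29.8 to 36.2 FPKM and 61.1 to 75.5 FPKM. Over the alternatives that kept every library, the lowest log2 fold change of each was 0.006. In these embryos AURKC was 1.38 to 2.02 times as abundant as AURKB.

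The spindle checkpoint genes had log2 fold changes between -0.13 and 0.10. BUB3 was at 181 to 195 FPKM, MAD2L1, the effector of the checkpoint, at 78.2 to 93.0 FPKM, and the kinase gene TTK at 6.97 to 9.91 FPKM, and all 3 overlapped. BUB1 was at 22.9 and 25.5 FPKM in the controls and 22.1 and 22.3 FPKM with knockdown. MAD2L1BP, whose product silences the checkpoint, was higher by 0.10, which became -0.01 under median-ratio scaling and with the same FPKM sum. The summed level of the 6 genes was 375 ± 13.4 FPKM (SD, n = 2) in the controls and 379 ± 4.27 FPKM (SD, n = 2) with knockdown.

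PTTG1, the gene of securin, gave the largest fold change of all members and rested on a single library. It was at 299 FPKM in NC replicate 1, at 354 and 353 FPKM in KDM5_KD, and listed at 1.37e-06 FPKM in NC replicate 2. Its log2 fold change of 4.35 had an SE of 2.37 (limma adjusted p = 0.400). Without NC replicate 2 it was 0.24 (limma adjusted p = 0.489), and without NC replicate 1 it was 8.47 (limma adjusted p = 2.71e-05). PTTG1 was the only protein-coding row below 0.001 FPKM in NC replicate 2 with at least 50 FPKM in each of the other 3 libraries. Whether the transcript was absent from that library was not tested, and the other 3 libraries lay between 299 and 354 FPKM.

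CDC20, the activator of the anaphase-promoting complex, was at 214 and 193 FPKM in the control libraries against 181 and 165 FPKM in the knockdown libraries (log2 fold change -0.23 with an SE of 0.12, adjusted p = 0.378 by limma). The subunits of the complex itself were together at 154.2 and 153 FPKM in the controls and 170.3 and 184 FPKM with knockdown. Much of this came from a pair of small subunits. ANAPC11, the RING subunit of the catalytic core, was at 32.7 and 22 FPKM in the control libraries against 33.4 and 43.7 FPKM in the knockdown libraries (0.50, SE 0.23), and its difference was 0.22 without NC replicate 2, 0.31 without KDM5_KD replicate 2 and 0.77 without NC replicate 1. ANAPC15, which helps to turn over the checkpoint complex, was at 26.3 and 24.4 FPKM in the controls and 31.3 and 36.4 FPKM with knockdown (0.40 with an SE of 0.14, adjusted p = 0.240 by limma).

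ANAPC4, ANAPC5, ANAPC7, ANAPC10 and ANAPC16 had log2 fold changes between -0.01 and 0.13. ANAPC4 alone of these did not overlap, and its difference of 0.13 became -0.15 after quantile normalization. ANAPC13 has a pair of rows between which the estimates moved: one was at 0.466 FPKM in NC replicate 1 and 3.56 FPKM in NC replicate 2, the other at 2.98 FPKM and 1.41e-05 FPKM. Summed, ANAPC13 was at 3.44 and 3.56 FPKM in the control libraries against 4.86 and 6.03 FPKM in the knockdown libraries, a log2 fold change of 0.51 (with an SE of 0.20, adjusted p = 0.267 by limma). CDC16, CDC23 and CDC27, larger subunits, overlapped between the groups.

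Of the 17 centromere and kinetochore genes 3 lay above (17.6%), 3 below (17.6%) and 11 overlapped, where 35.1% of all transcripts lay above and 15.6% below. CENPA, the histone variant that marks the centromere, was at 32.0 and 29.9 FPKM in the controls and 29.8 and 26.6 FPKM with knockdown (log2 fold change -0.13 with an SE of 0.14). CENPM was at 47.6 and 36.8 FPKM in the control libraries against 35.0 and 32.0 FPKM in the knockdown libraries (-0.31, SE 0.16), and the difference was -0.13 without NC replicate 1 and -0.50 without NC replicate 2. CENPH was at 11.8 and 11.5 FPKM in the controls and 12.8 and 17.7 FPKM with knockdown (0.34, SE 0.20), and the difference was 0.12 without KDM5_KD replicate 2 and 0.56 without KDM5_KD replicate 1. CENPF, a large mitotic kinetochore protein, was at 12.5 FPKM in both controls and at 14.4 and 15.5 FPKM in KDM5_KD (0.24, SE 0.15). NDC80, which binds spindle microtubules, and CENPW, the most abundant of the group at 54.1 to 68.4 FPKM, overlapped. Summed over the group the level was 324 ± 1.07 FPKM (SD, n = 2) in the controls and 328 ± 7.96 FPKM (SD, n = 2) with knockdown.

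In the group of the G1 to S transition and replication origins, RB1 had the one sizeable difference. RB1 was at 0.911 and 1.05 FPKM in the control libraries against 2.01 and 2.46 FPKM in the knockdown libraries (log2 fold change 0.70 with an SE of 0.21, adjusted p = 0.185 by limma), and after quantile normalization the difference was 0.41. Its mean in NC was 0.982 FPKM, so it passed the filter through the knockdown libraries. E2F1, the transcription factor that RB1 restrains, was at 95.2 and 67.8 FPKM in the controls and 81.7 and 94.8 FPKM with knockdown, far above RB1 and overlapping. The replication genes CDC6, CDC7 and CDC45 overlapped as well, with log2 fold changes from -0.10 to 0.08. CDC34, a ubiquitin-conjugating enzyme, was at 95.0 and 96.3 FPKM in the control libraries against 88.6 and 90.2 FPKM in the knockdown libraries (-0.10, SE 0.11).

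Of the 26 members left outside the role groups, 10 lay above (38.5%), 3 below (11.5%) and 13 overlapped, shares near the 35.1% and 15.6% of all transcripts. CDC42EP1, an effector of CDC42 in the actin cytoskeleton, was at 4.18 and 0.516 FPKM in the controls and 10.6 and 8.20 FPKM with knockdown, 4.01 times as high by the means. Its log2 fold change was 1.88 (with an SE of 0.55, adjusted p = 0.184 by limma), 1.0 without NC replicate 2 and 2.77 without NC replicate 1, where it passed (limma adjusted p = 0.00871, range 0.00871 to 0.479 over the comparisons that left out a library). CDC42SE1, another small effector of CDC42, was at 15.6 and 18.3 FPKM in the control libraries against 23.7 and 24.1 FPKM in the knockdown libraries (0.48, SE 0.15). CDKN2AIPNL was at 5.32 and 7.54 FPKM in the controls and 9.57 and 13.4 FPKM with knockdown (0.75 with an SE of 0.24, adjusted p = 0.210 by limma). MAD2L2, a subunit of a DNA polymerase for damaged templates and the most abundant of these rows, was at 78.4 to 106 FPKM and overlapped.

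**Figure D5:**
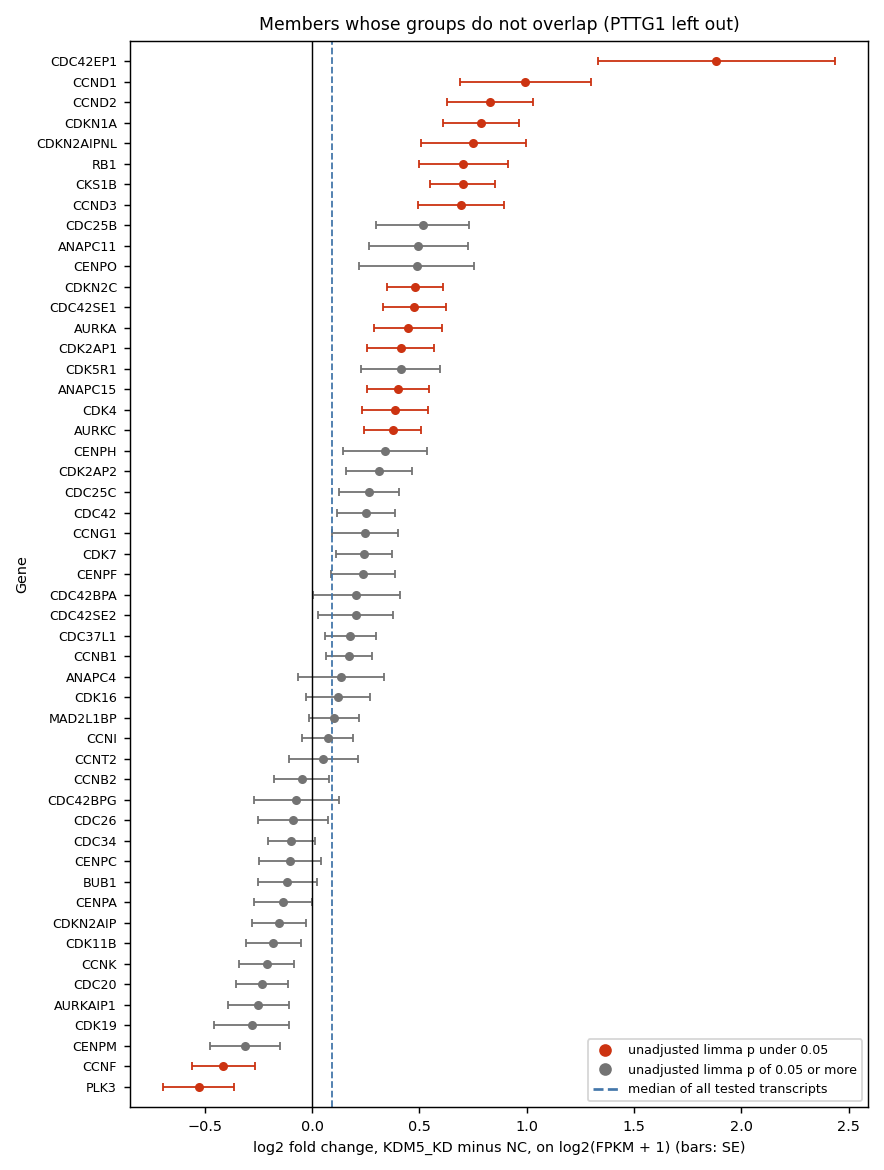
Log2 fold change (KDM5_KD minus NC, on log2(FPKM + 1)) with its SE for 51 of the 52 members whose groups do not overlap, PTTG1 (4.35, SE 2.37) being left out. Red marks an unadjusted limma p under 0.05, the dashed line is the median of all tested transcripts at 0.09, and CDC42EP1, CCND1, CCND2 and CDKN1A lie farthest to the right and PLK3 and CCNF farthest to the left.

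Other genes of the cell cycle, outside the symbol rule, were counted from a list of 116 genes, of which 91 had a tested row (94 rows). In limma 0 of the 94 rows were called, and 5 (5.32%) were higher and 2 (2.13%) lower at an unadjusted p under 0.05, beside 14.3% and 3.12% of all tested transcripts. Both knockdown libraries lay above both controls for 26 rows (27.7%) and below for 14 (14.9%), beside 35.1% and 15.6% of all, and the median log2 fold change was 0.01, beside 0.09. The 18 rows of cohesin, condensin and separase had a median of -0.11, with 2 above (11.1%) and 6 below (33.3%). The 19 rows of the kinetochore beyond the CENP names had a median of 0.13, with 7 above (36.8%) and 1 below (5.26%), and the share above was near that of all transcripts.

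Among rows of that list with a mean of at least 5 FPKM and groups that did not overlap, the largest differences were in NUSAP1, ENSA and CDCA2. NUSAP1, which encodes a microtubule-bundling protein of the spindle, was at 26.5 and 30.5 FPKM in the control libraries against 34.3 and 66.6 FPKM in the knockdown libraries (log2 fold change 0.73 with an SE of 0.30, adjusted p = 0.287 by limma). KDM5_KD replicate 2 was well above the rest, and the difference was 0.26 without it and 1.20 without KDM5_KD replicate 1. One of a pair of rows of ENSA, an inhibitor of the phosphatase that opposes CDK1, was at 11.9 and 11 FPKM in the controls and 15.9 and 19.7 FPKM with knockdown (0.59 with an SE of 0.17, adjusted p = 0.182 by limma). The other ENSA row was at 14.6 and 17.0 FPKM in the controls and 18.9 and 22.7 FPKM with knockdown. Its difference was smaller (0.37 with an SE of 0.17, adjusted p = 0.323 by limma). CDCA2 was at 12.7 and 20.3 FPKM in the control libraries against 22.7 and 22.8 FPKM in the knockdown libraries (0.47 with an SE of 0.23, adjusted p = 0.351 by limma). NC replicate 1 was the low library, and the difference was 0.15 without it and 0.79 without NC replicate 2.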

How the data were processed

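Polyadenylated RNA of 4 libraries, 2 per group, was analysed from one deposited table of FPKM values. Per the submitters' processing notes, Trimmomatic, HISAT2, featureCounts and Cufflinks were used. Their roles and versions, the genome build and the annotation are not given in the sources used here, so no coordinates are given. The FPKM unit follows from the name of the deposited table and its values. Row accessions were paired with symbols through RefSeq genes (assembly ARS-UCD2.0). Read depth is unknown, and the FPKM summed to 283347 to 322267 per library, so precision rests on 2 libraries per group. Near-identical or overlapping genes and alternative transcripts may share reads between rows.

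Tests used limma 3.58.1 in R 4.3.3 (lmFit, eBayes with a trend) on log2(FPKM + 1), all 4 libraries, no covariates, rows with a mean of at least 1 FPKM, two-sided, with Benjamini-Hochberg adjustment over all tested rows. Fold changes on this scale understate changes of low rows. The fit was checked only on data simulated from its own variance model, with planted changes larger than those of all tested members but PTTG1. Its power for smaller changes was not examined. The members, role groups, gene lists and naming rule were chosen with earlier results of these data known. Named were fixed core genes, any called member, and in each role group the most abundant member and the up to 3 largest differences among members with a mean of at least 5 FPKM and groups that did not overlap. On the wider list the 3 largest such differences were named. CDK14 and CDKN3, below the filter, and the members CDKN2B, CDKN2D, PLK2, CDC16, CDC23 and CDC27 were added afterwards to complete their groups, and the marker genes were named after their values were seen. Alternatives were a pseudocount of 0.1, no filter (rows listed at 0 in every library left out) or a filter at 5 FPKM, 3 scalings, 2 variance models, rows summed by symbol, the replicate number as a block, and each library left out. Tables were made in pandas 2.3.3 and numpy 2.4.6 under Python 3.11.15, and plots in matplotlib 3.10.9.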

Additional observations from a re-analysis of the deposited data

How the results depend on the processing

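Over all transcripts 17 were called higher and 8 lower. No filter gave 2 and 1, a filter at 5 FPKM 11 higher, the same FPKM sum 8 higher, eBayes without a trend 6 higher, robust eBayes 37 higher, and the replicate block 8 higher and 4 lower. Leaving out a library gave 3 to 323 higher and 3 to 17 lower, with 323 higher without NC replicate 1. Among members 0 were called in all 10 alternatives that kept every library, with a smallest adjusted p of 0.0766 under the replicate block. Leaving out a library gave 0 to 4 members called higher; the 4, all without NC replicate 1, were CDKN1A, PTTG1, CDC42EP1 and 1 row of ANAPC13. There the lone control is assumed to vary like the other libraries. Replicate numbers are shared between the groups, but no label says that they pair libraries. Deviations of same-numbered libraries correlated at 0.229 across transcripts.

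Members that lay above both controls numbered 21 with the same FPKM sum, against 36. Those below numbered 27 by median ratio, 32 after quantile normalization and 28 at the same sum, against 16. With a library left out 53 to 64 lay above and 28 to 35 below, since fewer libraries overlap less often. The member median of 0.06 became -0.037 (median ratio), -0.052 (quantile) and -0.041 (same sum), and stayed between 0.053 and 0.088 with a library left out. Of the named members that did not overlap, 4 of 38 changed sign in an alternative: CCNI to -0.037 (median ratio) and -0.041 (same sum), MAD2L1BP to -0.0088 and -0.013, CDK16 to -0.030 and ANAPC4 to -0.15 (both quantile). Of the 32 whose groups overlapped, 28 changed sign in at least 1 alternative, so their direction is not determined. Causes were not tested.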
